A study of Homo sapiens with 3 samples.

Results

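The 10 genes described here encode secreted inflammatory factors that NF-kB drives and that are known in PC3 cells: the chemokines CXCL8, CXCL1, CXCL2, CXCL3, CCL20 and CCL2, the interleukins IL6, IL1A and IL1B, and the growth factor CSF2. They were taken by their symbols from a table of 59719 gene names. Of these names, 13637 averaged 1 TPM or more over the 3 libraries and were tested, and 9 of the 10 genes were among these. TPM is a read share corrected for the length of the transcript and brought to a common total in every library. Levels can therefore be compared between genes, but the depth of sequencing is not known and values have no interval. CCL2, the monocyte chemoattractant, was listed at 0 TPM in every library. The other 9 genes were at 5.44 TPM or more in every library, so none of them entered through the library where it was high.

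The libraries came from PC3, an androgen-independent prostate cancer line, stably expressing a control (shCON, a vector control by the series' design text, in a column headed RFP) or either of 2 hairpins against USP16, a deubiquitinase (shUSP16#1 and shUSP16#2). All 3 lines carried the pLKO.1 vector, were selected with puromycin and gave 1 library each, so no difference below has a replicate check, and no p-value was computed. A change is the difference in log2(TPM + 1) between a hairpin and shCON, and on this scale changes of genes with few TPM come out too small. A gene is said to have fallen or risen where it moved by at least 2-fold on that scale. Both comparisons use the same shCON library, so they are not independent.

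NF-kB is a family of dimeric transcription factors that inhibitory IkB proteins hold in the cytoplasm. Signals from tumour necrosis factor, interleukin 1 or microbial products activate the IKK kinase, which marks IkB for destruction, and the freed dimers enter the nucleus and switch on cytokine and chemokine genes, along with the IkB genes that end the response. Many epithelial tumours keep this pathway partly active, and PC3 is a common model of such constitutive secretion. The mRNAs of these factors are short-lived, because AU-rich elements in their 3′ untranslated regions recruit proteins that remove the poly(A) tail.

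USP16 itself was at 19.9 TPM in shCON, 3.50 TPM in shUSP16#1 and 1.08 TPM in shUSP16#2, which left 17.6% and 5.42% of the control level. The target was lower in the shUSP16#2 library. The 6 markers of PC3 and epithelial cells were present in all libraries but not steady. KRT8 was at 622 to 748 TPM and KRT18 at 778 to 947 TPM, while KRT19 went from 507 TPM in shCON to 838 and 958 TPM in shUSP16#1 and shUSP16#2. EPCAM went from 273.5 to 166 and 136 TPM and VIM from 96.4 to 59.8 and 40.5 TPM, both falls under shUSP16#2, and CAV1 went from 214.5 to 126 and 135 TPM. The part of these markers' changes in the results below was not tested. KLK3, which PC3 lacks, was listed at 0 TPM in every library. Of 21 markers of immune cells, fibroblasts and endothelial cells, 17 stayed below 1 TPM in every library, PTPRC (the pan-leukocyte marker) at 0.14 TPM or less. Their summed levels in shCON, shUSP16#1 and shUSP16#2 were 42.6, 34.8 and 32.3 TPM for immune markers, most of it CD68, 6.44, 15.2 and 7.74 TPM for fibroblast markers, and 0.46, 0.92 and 1.39 TPM for endothelial markers. Within these bulk cultures, fewer cells of a type and less RNA per cell cannot be told apart. Across the tested genes as a whole, the median change was -0.17 for shUSP16#1 and -0.37 for shUSP16#2, and the changes also trended with the GC content of the transcripts, which was known for 97.5% of the tested genes.

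The levels of the secreted factors in the control cells spanned a wide range. CXCL1 ranked 109 of the 13637 tested genes in shCON, CXCL8 ranked 247, IL1B ranked 275, CXCL3 ranked 390 and IL6 ranked 744. CXCL2 ranked 1286, CCL20 ranked 2406, CSF2 ranked 3922 and IL1A ranked 6429. In TPM, the order in shCON was CXCL1, CXCL8, IL1B, CXCL3, IL6, CXCL2, CCL20, CSF2 and IL1A, from 1521 down to 13.7 TPM. In shUSP16#2 the order was CXCL1, IL1B, CXCL8, IL6, CXCL3, CXCL2, CSF2, CCL20 and IL1A, from 414 down to 5.44 TPM. With 1 library a group there is no spread by which neighbours in these orders could be set apart. The 10 genes together made up 0.349% of all TPM in shCON, 0.231% in shUSP16#1 and 0.114% in shUSP16#2, sums of 3491, 2306 and 1142 TPM.

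**Figure D1:**
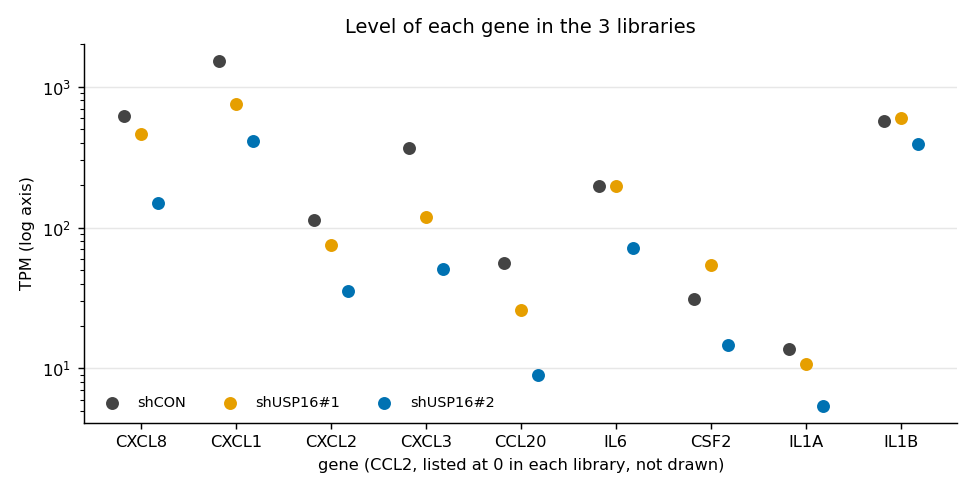
Level of each cytokine and chemokine gene in the 3 PC3 libraries, in TPM on a log axis, 1 point per library. CXCL1, CXCL3 and CCL20 step down from shCON to shUSP16#1 and again to shUSP16#2, whereas IL6 and IL1B are close in shCON and shUSP16#1 (198 and 198 TPM for IL6) and CSF2 is highest in shUSP16#1 at 54.3 TPM.

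The chemokines CXCL1, CXCL2, CXCL3 and CXCL8 share the ELR motif ahead of their first cysteines and attract neutrophils through CXCR2, which CXCL8 (interleukin 8) joins with CXCR1. CXCL3 (ENSG00000163734) was at 369.9 TPM in shCON, 119.9 TPM in shUSP16#1 and 51.1 TPM in shUSP16#2, changes of -1.62 and -2.83, and it had the lowest share of control left of the 9 genes under either hairpin, 32.4% and 13.8%. CXCL1 (ENSG00000163739) was at 1521, 759.6 and 414 TPM in the same order, changes of -1.001 and -1.87. CXCL1 thus fell under both hairpins, but under shUSP16#1 its fold of 2.001 lay at the edge of what was counted. CXCL2 (ENSG00000081041) was at 112.5, 75.0 and 35.6 TPM, changes of -0.58 and -1.63. CXCL8 (ENSG00000169429) was at 616, 462 and 149 TPM, changes of -0.41 and -2.05. Both CXCL2 and CXCL8 fell under shUSP16#2 alone, where 31.7% and 24.1% of their control levels were left.

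CXCL1, CXCL2 and CXCL3 are near copies of each other, so the split of reads among them is uncertain. Their coding sequences were identical at 93.5% of positions for CXCL1 and CXCL2, 90.7% for CXCL1 and CXCL3 and 94.4% for CXCL2 and CXCL3, against 51.6% to 54.1% between CXCL8 and any of them. Stretches of 50 bases shared with another gene made up 5.73% of CXCL1, 9.24% of CXCL2 and 5.26% of CXCL3, and the other genes of the set shared none. The sum of the 3 copies depends less on the split. It is not free of it, because TPM divides by transcript lengths, which differ among the copies. The sum was 2003 TPM in shCON, 954 TPM in shUSP16#1 and 501 TPM in shUSP16#2, changes of -1.07 and -1.998. The sum thus fell under both hairpins, to 47.6% and 25.0% of control. Under shUSP16#1 the call ended after centring (-0.90) and without the GC trend (-0.89), while under shUSP16#2 the sum stood at -1.63 and -1.76. For the GC trend, the sum took the shift of CXCL1, its most abundant gene.

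The promoters of these genes are shown because NF-kB sites there are what the genes are known for. Each sequence is the 140 bases before the RefSeq start on GRCh38.p14, read 5′ to 3′ on the strand of the gene. Capitals mark matches, on either strand, to the NF-kB consensus of 10 letters or to GGNNNTTCC, a looser pattern of 9 letters that overlaps it. The windows lie at chr4:73740429-73740568 on the forward strand for CXCL8, chr4:73869253-73869392 on the forward strand for CXCL1, chr4:74099196-74099335 on the reverse strand for CXCL2, chr4:74038690-74038829 on the reverse strand for CXCL3, chr2:227813702-227813841 on the forward strand for CCL20 and chr7:22727060-22727199 on the forward strand for IL6.
CXCL8: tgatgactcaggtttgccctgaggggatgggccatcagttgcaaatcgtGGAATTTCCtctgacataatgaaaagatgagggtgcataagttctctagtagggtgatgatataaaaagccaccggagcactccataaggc
CXCL1: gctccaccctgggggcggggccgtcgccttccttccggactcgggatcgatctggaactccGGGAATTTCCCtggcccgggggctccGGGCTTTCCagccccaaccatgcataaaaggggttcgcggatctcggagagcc
CXCL2: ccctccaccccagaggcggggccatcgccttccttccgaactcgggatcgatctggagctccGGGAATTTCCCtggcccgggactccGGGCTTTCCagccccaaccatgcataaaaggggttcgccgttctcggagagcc
CXCL3: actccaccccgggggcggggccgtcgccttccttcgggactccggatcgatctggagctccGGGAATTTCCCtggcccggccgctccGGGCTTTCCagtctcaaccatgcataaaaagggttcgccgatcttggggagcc
CCL20: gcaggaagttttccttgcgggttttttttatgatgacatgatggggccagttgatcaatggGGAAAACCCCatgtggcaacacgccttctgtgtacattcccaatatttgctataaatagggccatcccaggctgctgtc
IL6: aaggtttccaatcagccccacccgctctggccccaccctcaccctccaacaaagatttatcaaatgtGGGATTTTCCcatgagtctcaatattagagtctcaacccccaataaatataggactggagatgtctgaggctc

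The 3 copies carried a match to the consensus at the same distance from the start, bases -79 to -70 in CXCL1 and CXCL3 and -78 to -69 in CXCL2, followed in each by a match to GGNNNTTCC at -53 to -45. CXCL8 held GGNNNTTCC at -91 to -83 but no match to the stricter consensus, and the AP-1 pattern TGANTCA at -137 to -131. IL6 had its consensus match at -73 to -64, and CCL20 had one on the opposite strand at -79 to -70. CSF2 held 2 matches to GGNNNTTCC and none to the consensus, while the windows of IL1A and IL1B held neither. Of 35116 RefSeq promoter windows searched over 250 bases before the start on both strands, 5.21% held the consensus, 17.1% held GGNNNTTCC and 6.57% held TGANTCA. These windows were not limited to tested genes. Of the 9522 tested genes with a window, 782 held the consensus, 2434 held GGNNNTTCC and 586 held TGANTCA. The 782 tested genes with a consensus match had median changes of -0.13 and -0.29, against -0.20 and -0.41 over the 9522 tested genes with a window. CXCL1, CXCL2, CXCL3, IL6 and CCL20 all held the consensus, and their changes under shUSP16#1 ran from -1.62 for CXCL3 to 0.0046 for IL6. Under shUSP16#2 their changes ran from -2.83 for CXCL3 to -1.45 for IL6. CXCL8, CSF2, IL1A and IL1B held no consensus match. The changes of these genes ran from -0.41 (CXCL8) to 0.79 (CSF2) under shUSP16#1 and from -2.05 (CXCL8) to -0.55 (IL1B) under shUSP16#2. The part of the sites in the changes was not tested.

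CXCL8, CXCL1, CXCL2 and CXCL3 lie in a row of CXC chemokine genes on chromosome 4, and the other genes of that row were read as well. In RefSeq order the row is CXCL8, CXCL6, PF4V1, CXCL1, PF4, PPBP, CXCL5, CXCL3 and CXCL2. CXCL5 and CXCL6 are also neutrophil attractants that bind CXCR2, and PPBP and PF4 are known from platelets. CXCL5 was at 360.0 TPM in shCON, 53.6 TPM in shUSP16#1 and 21.2 TPM in shUSP16#2, changes of -2.73 and -4.02. CXCL6 was at 346, 134 and 53.2 TPM, changes of -1.36 and -2.68. PPBP was at 11.3, 3.40 and 2.36 TPM, changes of -1.48 and -1.87. All 3 fell under both hairpins, and the changes of CXCL5 were larger than those of any gene of the set. PF4 and PF4V1 were at 0.09 TPM or less.

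Of the 7 tested genes in the row, 5 fell under both hairpins (CXCL1, CXCL3, CXCL5, CXCL6 and PPBP), and the other two were CXCL8 and CXCL2. Of all tested genes 4.6% fell under both. After centring 4 of the 7 fell, without CXCL1, where 2% of all tested genes fell under both. Without the GC trend 3 did, CXCL3, CXCL5 and PPBP, where 1.94% of all tested genes did. The medians of the 7 were -1.36 and -2.05, and their summed level went from 3337 TPM in shCON to 1608 and 726 TPM. The 10 coding genes that flank the row, 5 on each side and chosen after the values of the row were seen, had 5 tested members, of which 0 fell and 0 rose under both hairpins, where 4.6% and 1.14% of all tested genes did. Their medians were -0.58 and -1.05. With 5 genes, a count of 0 cannot be set apart from these shares. Under shUSP16#2 alone, 3 of the 5 flank genes fell (MTHFD2L, AREG and BTC), where 19.5% of all tested genes fell. After centring or without the GC trend 0 of them did. All 7 genes of the row fell under shUSP16#2 with each of these scalings. The share of all tested genes that fell under shUSP16#2 with these scalings is not given here. AREG, an EGF receptor ligand in that flank, was at 57.9, 38.4 and 24.1 TPM, and EPGN, another such ligand, was at 68.1, 37.5 and 54.6 TPM. CXCL5 and CXCL6 were alike in 87.4% of their coding bases, so reads may also have been shared between these copies.

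**Figure D2:**
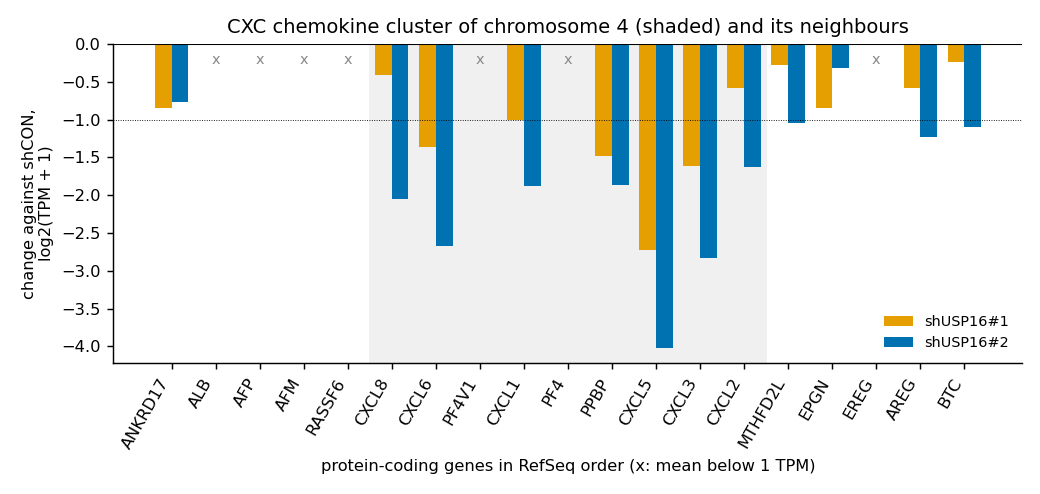
Changes under each hairpin for the genes of the CXC chemokine row on chromosome 4 and its flanks, in RefSeq order without distances, as log2(TPM + 1) minus shCON for the tested genes. CXCL5 lies lowest at -2.73 and -4.02, and the 5 tested flank genes have medians of -0.58 and -1.05.

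CCL20 draws CCR6-bearing dendritic cells and Th17 lymphocytes and lies on chromosome 2, apart from the CXC row. CCL20 (ENSG00000115009) was at 56.2 TPM in shCON, 26.1 TPM in shUSP16#1 and 8.98 TPM in shUSP16#2, changes of -1.08 and -2.52. It fell under both hairpins, to 46.3% and 15.97% of control, and its rank among the tested genes went from 2406 to 4008 and 6689.

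IL6 and CSF2 followed another course, with lower values in shUSP16#2 only. IL6, the interleukin that signals through gp130 and STAT3, was at 198 TPM in both shCON and shUSP16#1 and at 71.9 TPM in shUSP16#2. Its changes were 0.0046 and -1.45, so IL6 (ENSG00000136244) fell under shUSP16#2 to 36.4% of control. CSF2, or GM-CSF, which supports granulocytes and macrophages, was at 31.0 TPM in shCON, 54.3 TPM in shUSP16#1 and 14.7 TPM in shUSP16#2. CSF2 (ENSG00000164400) had changes of 0.79 and -1.03, in opposite directions, of which only the fall under shUSP16#2 reached 2-fold.

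IL1A and IL1B encode the precursors of interleukin 1 alpha and beta, cytokines that signal through the same receptor and themselves activate NF-kB. IL1A (ENSG00000115008) was at 13.7 TPM in shCON, 10.8 TPM in shUSP16#1 and 5.44 TPM in shUSP16#2, changes of -0.32 and -1.19, and it fell under shUSP16#2 alone. IL1B (ENSG00000125538) was at 573 TPM, 599 TPM and 391 TPM, changes of 0.064 and -0.55. It was the only tested gene of the set that reached 2-fold under neither hairpin, with 104.6% and 68.3% of its control level.

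Over the 9 tested genes, 3 fell under shUSP16#1 (CXCL1, CXCL3 and CCL20), where 5.79% of all tested genes did, and 8 fell under shUSP16#2 (all but IL1B), where 19.5% did. Under both hairpins 3 fell, the same 3 genes, against 4.6% of all tested genes. Where the minimum was set at 5 TPM, which left 9301 genes, 4.77% fell under both, and the 9 genes all belong to these. None of the 9 rose: 0 under shUSP16#1 against 2.84% of all genes, 0 under shUSP16#2 against 2.8%, and 0 under both against 1.14%. The median change of the 9 genes was -0.41 under shUSP16#1 and -1.63 under shUSP16#2, beside -0.17 and -0.37 over all tested genes. The spread within the set was wide, from -1.62 for CXCL3 to 0.79 for CSF2 under shUSP16#1 and from -2.83 for CXCL3 to -0.55 for IL1B under shUSP16#2.

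**Figure D3:**
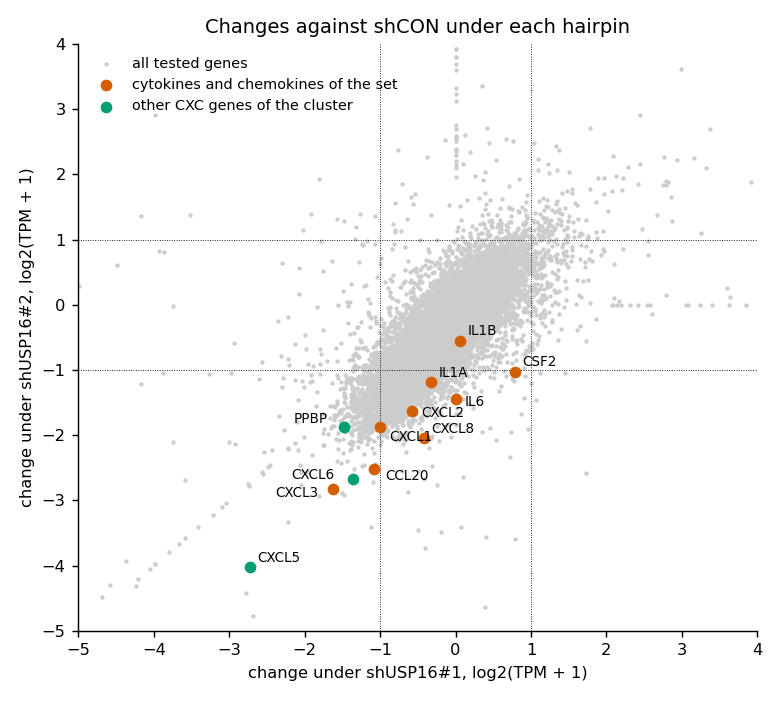
Change under shUSP16#2 against change under shUSP16#1 for all tested genes (grey), the cytokines and chemokines of the set (orange) and the other CXC genes of the chromosome 4 row (green), on the log2(TPM + 1) scale, with dotted lines at 2-fold and 86 genes outside the axes. CXCL3, CCL20 and, at the edge, CXCL1 lie past 2-fold along both axes, while IL6, IL1B and CSF2 lie at or right of 0 under shUSP16#1.

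The hairpins differed for most of these genes. All 9 were lower in shUSP16#2 than in shUSP16#1, a direction shared by 73.4% of all tested genes. The difference between the hairpin libraries reached 2-fold for 6 of the 9 (CXCL8, CXCL2, CXCL3, IL6, CSF2 and CCL20), where 3.58% of all tested genes did. It was -1.82 for CSF2, -1.63 for CXCL8, -1.45 for IL6, -1.44 for CCL20, -1.21 for CXCL3 and -1.05 for CXCL2. For CXCL1 and IL1A it was -0.87, and for IL1B -0.61. Whether this gap goes with the lower USP16 in shUSP16#2, with the hairpin sequence or with the single library cannot be told apart.

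The scaling of the libraries bears on the size of these changes. After the median change of all tested genes was set to 0, CXCL3 was the only gene of the set that still fell under both hairpins, with changes of -1.45 and -2.46, and CCL20 (-0.91 and -2.15) and CXCL1 (-0.83 and -1.51) passed 2-fold under shUSP16#2 alone. Under shUSP16#2, CSF2 (-0.66) and IL1A (-0.82) no longer passed 2-fold after centring, and neither did IL1A without the GC trend (-0.50). After removal of the trend with GC content CXCL3 was again the only such gene, at -1.65 and -2.86. CXCL8 and CCL20 have the AT-richest transcripts of the set, with 33.4% and 35.5% GC against a median of 49.1% over all tested genes. Without the GC trend CXCL8 stood at 0.013 and -1.30 and CCL20 at -0.63 and -1.82. The part of GC content in these changes was not tested. CXCL5, outside the set, stood at -2.28 and -3.34 without the trend, and CXCL6 at -0.99 and -2.10.

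**Figure D4:**
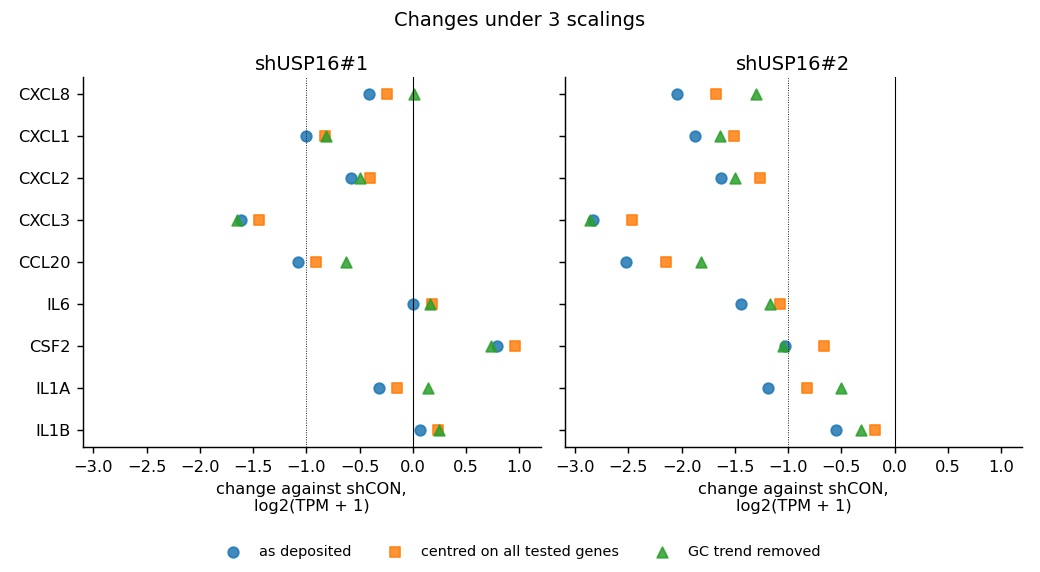
Change of each tested gene of the set under shUSP16#1 (left) and shUSP16#2 (right) as deposited, centred so that all tested genes have a median of 0, and with the trend in GC content removed, on the log2(TPM + 1) scale with a dotted line at 2-fold lower. CXCL3 stays past 2-fold in both panels under all 3 scalings, and under shUSP16#1 CXCL8 moves from -0.41 to 0.013.

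The NF-kB machinery upstream of these factors held 1 tested gene, NFKB1, at the edge of 2-fold under both hairpins. Of 17 tested genes for the subunits and their activation, 0 fell and 0 rose under both hairpins, where 4.6% and 1.14% of all tested genes did, and the medians were -0.07 and -0.18. RELA, the p65 subunit, was at 77.4 TPM in shCON, 79.2 TPM in shUSP16#1 and 76.9 TPM in shUSP16#2. NFKB1, which encodes p105 and its product p50, was at 22.6, 10.9 and 10.2 TPM, changes of -0.99 and -1.08. That is 48.1% and 44.9% of control, and the pseudocount of 1 kept NFKB1 from being counted under both hairpins: with a pseudocount of 0.1 its changes were -1.05 and -1.15, and without the GC trend they were -1.05 and -1.10. After centring they were -0.82 and -0.71. Under shUSP16#2, 3 of the 17 fell (NFKB1, CHUK and TAB2), where 19.5% of all tested genes did. IKBKB, a catalytic IKK kinase, was at 3.52, 6.55 and 5.39 TPM. CHUK, another catalytic IKK kinase, was at 8.09, 5.09 and 1.6 TPM, changes of -0.58 and -1.81. Under shUSP16#2 CHUK stood at -1.44 after centring and -1.10 without the GC trend. CHUK was chosen after its values were seen. TAB2, an adaptor of the TAK1 kinase, was at 13.9, 8.36 and 4.73 TPM, and it fell under shUSP16#2 alone. REL, a subunit of the same list, averaged 0.85 TPM and so was not tested. It was at 1.82, 0.44 and 0.29 TPM, changes of -0.97 and -1.13. REL was chosen after its values were seen.

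The inhibitors and feedback genes, themselves NF-kB targets, had 14 tested members with 0 fallen and 0 risen under both hairpins, beside 4.6% and 1.14% of all tested genes, and medians of -0.09 and -0.41. NFKBIA, the IkB alpha gene, was at 138 TPM in shCON, 214 TPM in shUSP16#1 and 141 TPM in shUSP16#2. TNIP1, a partner of the A20 enzyme, was at 276, 251 and 231.5 TPM. Under shUSP16#2, 1 of the 14 fell, where 19.5% of all tested genes did. It was NFKBIZ, an atypical nuclear IkB protein, with 30, 32.5 and 11.2 TPM and changes of 0.11 and -1.34. After centring NFKBIZ (-0.98) was no longer past 2-fold under shUSP16#2. Without the GC trend 3 fell there, NFKBIZ, NFKBID and ZC3H12A. NFKBIZ and NFKBID were chosen after their values were seen.

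In a list of other NF-kB targets, 2 of 22 tested fell under both hairpins and 0 rose, where 4.6% and 1.14% of all tested genes did. The medians were -0.02 and -0.41. The list was drawn up as targets that are not secreted, but PLAU (urokinase), which it holds, is secreted. BIRC2, the apoptosis inhibitor cIAP1, was at 17.9, 7.55 and 5.63 TPM. BCL2A1, a survival protein of the BCL2 family, was at 38.2, 17.7 and 6.19 TPM, changes of -1.07 and -2.45. These 2 were the genes that fell, and both lost the call under shUSP16#1 after centring (-0.97 for BIRC2 and -0.90 for BCL2A1) and without the GC trend (-0.69 and -0.67). PLAU (urokinase) was at 1028, 1675 and 872 TPM, IER3 was at 722, 791 and 699 TPM, and CD44 was at 1005, 606 and 707 TPM, none of them past 2-fold. TNFAIP2 was higher without reaching 2-fold, at 65.2, 104 and 102 TPM.

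**Figure D5:**
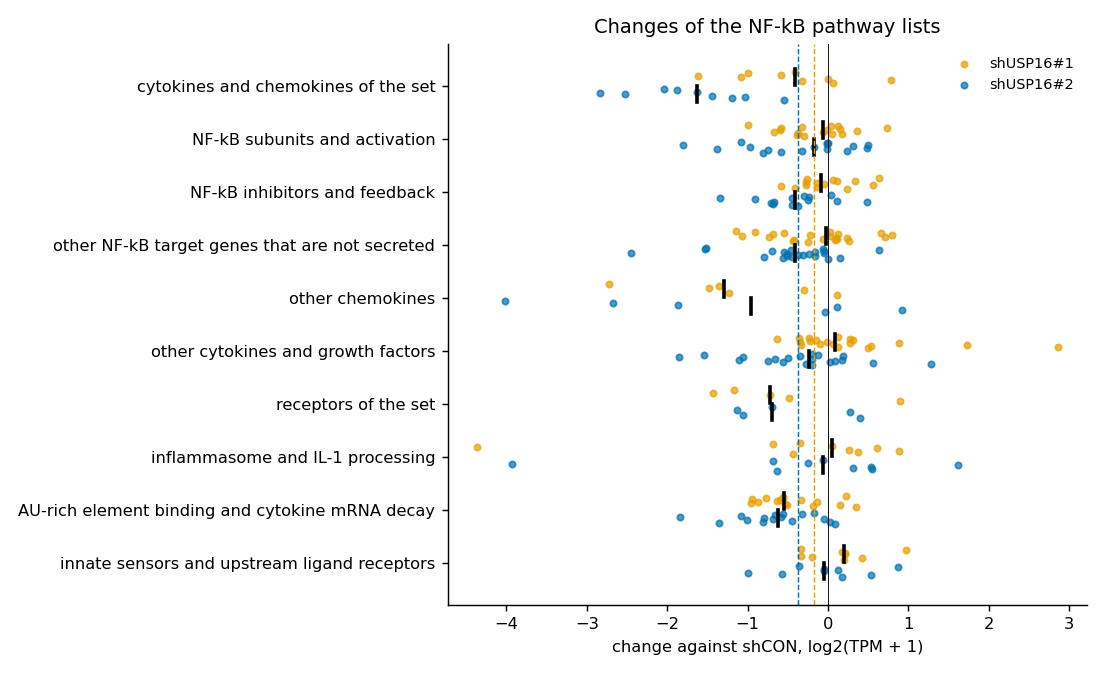
Change of every tested gene in the set and in 9 lists of the pathway under shUSP16#1 and shUSP16#2, on the log2(TPM + 1) scale, with each list's median. The medians of the NF-kB subunits (-0.07 and -0.18) and of the inhibitors (-0.09 and -0.41) lie near those of all tested genes (-0.17 and -0.37), and those of the set lie at -0.41 and -1.63. Without the GC trend, not drawn, the subunits had medians of -0.23 and -0.40 and the inhibitors of -0.26 and -0.71. Those of the set were then 0.013 and -1.30, so under shUSP16#1 the set no longer lay below the subunits and inhibitors.

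Among the other chemokines, 6 of 25 were tested, and the 3 that fell under both hairpins were CXCL5, CXCL6 and PPBP of the row on chromosome 4, with 0 risen and list medians of -1.29 and -0.95. Of all tested genes 4.6% fell and 1.14% rose. CXCL16, a transmembrane chemokine encoded elsewhere, was at 36.2, 29.3 and 39.1 TPM. Of 20 tested cytokines and growth factors outside the set, 0 fell and 1 rose under both hairpins, beside 4.6% and 1.14% of all tested genes, with medians of 0.09 and -0.23. The gene that rose was GDF15, a stress-induced member of the TGF-beta family, at 18.5 TPM in shCON, 141 TPM in shUSP16#1 and 46.2 TPM in shUSP16#2, and without the GC trend it was no longer past 2-fold under both. MIF, the highest of the list, was at 3270, 4756 and 4842 TPM, and LIF, a gp130 cytokine, was at 103, 113 and 89.8 TPM.

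Under shUSP16#2 alone, 4 of these 20 cytokines fell, a share close to the 19.5% of all tested genes that fell there. CSF3, the granulocyte colony-stimulating factor, was at 67.8 TPM in shCON, 82.4 TPM in shUSP16#1 and 30.9 TPM in shUSP16#2. IL24 was at 23.0, 20.7 and 5.61 TPM, IL23A at 20.4, 25.4 and 9.31 TPM, and IL11, another gp130 cytokine, at 12.8, 9.74 and 3.72 TPM. After centring, CSF3 (-0.74) and IL23A (-0.68) were no longer past 2-fold. CSF3, IL24 and IL23A were picked with their values in view.

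The cells that made these factors expressed few of their receptors. CXCR1, CXCR2, CSF2RA, CSF2RB, CCR2 and CCR6 were all at 0.14 TPM or less in every library. Of 5 tested genes in the receptor list, which also holds the antagonist IL1RN, 1 fell and 0 rose under both hairpins, beside 4.6% and 1.14% of all tested genes, with medians of -0.72 and -0.70. The gene that fell was IL6ST (gp130, the signalling chain for IL6), at 8.40 TPM in shCON, 2.48 TPM in shUSP16#1 and 3.30 TPM in shUSP16#2. The call was lost after centring (-0.76 under shUSP16#2) and without the GC trend (-0.98 and -0.42). Its partner IL6R was at 7.70, 2.87 and 4.36 TPM, a fall under shUSP16#1 alone. IL1R2, the decoy receptor of interleukin 1, was at 13.5, 7.81 and 16.6 TPM, and IL1RN was at 3.14, 6.69 and 4.48 TPM.

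Interleukin 1 beta is made as a precursor that inflammasomes, through caspase 1, cut to its active form. In that list 1 of 9 tested genes fell and 0 rose under both hairpins, beside 4.6% and 1.14% of all tested genes, with medians of 0.06 and -0.06. NLRP1, an inflammasome sensor of epithelial cells, was at 27.3 TPM in shCON, 0.37 TPM in shUSP16#1 and 0.86 TPM in shUSP16#2, changes of -4.37 and -3.92, and it was the gene that fell. PYCARD (ASC), the adaptor that links sensors to caspase 1, was at 6.14, 9.93 and 20.9 TPM and rose under shUSP16#2 alone, by 1.62. GSDMD, the pore protein through which interleukin 1 beta can leave, was at 123, 147 and 179 TPM. CASP4 was at 43.3, 26.5 and 26.5 TPM.

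Innate sensors and upstream receptors had 9 tested genes, of which 0 fell and 0 rose under both hairpins, beside 4.6% and 1.14% of all tested genes, with medians of 0.20 and -0.04. LY96 (MD-2, the co-receptor of TLR4) was at 18.4, 37.0 and 34.6 TPM, changes of 0.97 and 0.88 that passed 2-fold under both hairpins after centring and after removal of the GC trend. TLR4 itself, picked with its values in view, was listed at 0 TPM in every library. TRADD, the adaptor of the tumour necrosis factor receptor, was at 26.7, 36.1 and 39.1 TPM.

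The transcripts of the set were rich in the pentamer ATTTA, the core of AU-rich elements. Their 3′ untranslated regions held 9 copies in CXCL8, 5 in CXCL1, 10 in CXCL2, 7 in CXCL3, 6 in IL6, 5 in IL1A, 6 in IL1B, 8 in CSF2, 3 in CCL20 and 1 in CCL2. Per kilobase, the median of the tested genes of the set was 9.84, against 1.48 over 11197 coding genes, and 13.4% of these genes reached the lowest tested gene of the set. The part of these elements in the changes was not tested. Of 16 tested genes for AU-rich element binding and cytokine mRNA decay, 0 fell and 0 rose under both hairpins, beside 4.6% and 1.14% of all tested genes, with medians of -0.54 and -0.62. Changes were below 0 under both hairpins for 13 of the 16, and for 57.2% of all tested genes. Under shUSP16#2, 4 of the 16 fell (HNRNPD, TIA1, CNOT1 and MAPK14), where 19.5% of all tested genes did. After centring only TIA1 did. TIA1 and MAPK14 were chosen after their values were seen. HNRNPD (AUF1, a decay factor) was at 357, 186 and 169 TPM, changes of -0.94 and -1.08. KHSRP, another decay factor, was at 385, 306 and 256 TPM, and CNOT1, the scaffold of the deadenylase complex, was at 52.9, 26.8 and 25.7 TPM. ZC3H12A (regnase 1), which cuts the mRNA of IL6, was at 61.3, 55.8 and 37.7 TPM and stands in this list and among the inhibitors.

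A hairpin can also lower transcripts that match its seed, bases 2 to 8 of the strand loaded for silencing. The antisense strands are shown with the seed in capitals, under the assumption that they are cut at the first base of the designed strand.
shUSP16#1: aTAAACATgatttcttctggc
shUSP16#2: aAATCTTGtggaatatcaccg
A site for the seed of shUSP16#1 was present in the 3′ untranslated region of 1 of the 9 tested genes, IL1A, and in 19.95% of the coding genes. A site for the seed of shUSP16#2 was present in 1 of the 9, CXCL8, and in 10.3% of the coding genes. Genes with a site had a median change of -0.48 under shUSP16#1, against -0.14 without, and of -0.78 under shUSP16#2, against -0.36 without. These medians were not adjusted for GC content or for the length of the 3′ untranslated region, and their part in the gap was not tested. The seeds' part in the changes of IL1A and CXCL8 was not tested.

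The genes whose pair of changes was most like that of CXCL8, by Euclidean distance over both changes among 9292 genes averaging 5 TPM or more, were METTL9, CCN3, GNG10, DNAJC25-GNG10 and PIK3C2A. METTL9, a histidine methyltransferase, was nearest, at a distance of 0.11, with 60.2 TPM in shCON, 48.3 TPM in shUSP16#1 and 14.1 TPM in shUSP16#2. CCN3, a matricellular protein, was at 9.59, 6.69 and 1.83 TPM, a distance of 0.15. GNG10, a G protein gamma subunit whose exons DNAJC25-GNG10 shares, was at 55.6, 43.4 and 11.3 TPM, and PIK3C2A, a phosphoinositide kinase, was at 9.08, 5.45 and 1.52 TPM. The likeness rests on 2 values per gene from 3 libraries.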

How the data were processed

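RNA-seq libraries were prepared from total RNA of PC3 cells with an Illumina TruSeq kit. The authors deposited 1 table of TPM values made on the Majorbio Cloud Platform. The submitters' processing notes name CASAVA, HISAT2 and hg19; the quantification tool and annotation are not given in the sources used here. The 3 columns that repeat others were not used. Of entries with the same name, the one with the highest mean TPM was kept. Changes were computed as log2(TPM + 1) differences over genes averaging 1 TPM or more and called at 2-fold. With 1 library per condition no test was run. GC content, 3′ untranslated regions and shared stretches came from GENCODE release 29, and promoters from RefSeq on GRCh38.p14. The GC trend was removed as the median change in 50 bins, with the median of all genes added back.

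The genes and lists were chosen with earlier results of these data known. Beside the set and USP16, genes named from each list were drawn from its 3 highest and the 2 that fell and the 2 that rose most, with exceptions stated. Not every gene picked by this rule is named, and the others enter only the counts and medians. Alternatives were a pseudocount of 0.1, centring, GC trend removal, no minimum, a minimum of 5 TPM, 1.5-fold and each hairpin alone. The procedures were tested on simulated data. Python 3.11.15, numpy 2.4.6, pandas 2.3.3, matplotlib 3.10.9 and Biopython 1.88 were used.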

Additional observations from a re-analysis of the deposited data

Results flagged for a closer look

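3 genes of the set had changes of opposite sign under the 2 hairpins, each from 1 library, and the difference was not tested. CSF2 had a change of 0.79 under shUSP16#1 and -1.03 under shUSP16#2. IL6 had changes of 0.0046 and -1.45, and IL1B of 0.064 and -0.55, so both were close to shCON under shUSP16#1. Of these, only the changes of CSF2 and IL6 under shUSP16#2 reached 2-fold.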

How the results depend on the processing

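The count of genes of the set that fell under both hairpins was 3 as reported and 1 (CXCL3) after centring or after removal of the GC trend. It stayed at 3 with a pseudocount of 0.1, no minimum, a minimum of 5 TPM or a 1.5-fold threshold, and ran from 3 to 8 with either hairpin alone. Over all tested genes, the genes that fell under both numbered 627 as reported, 1098 with the pseudocount of 0.1, 273 centred, 265 without the GC trend and 2841 at 1.5-fold, and those that rose 155, 288, 341, 103 and 552. The count of the set that rose was 0 in all of these. The median change of the set went from -0.41 to -0.24 centred and 0.013 without the GC trend under shUSP16#1, and from -1.63 to -1.26 and -1.30 under shUSP16#2. The summed CXCL1, CXCL2 and CXCL3 had a mean change of -1.53 over both hairpins, from -1.998 to -1.07 with either alone. Mean changes over both hairpins turned sign for IL1B (-0.24, 0.027 centred) and CSF2 (-0.12, 0.15 centred). With shUSP16#1 alone, IL6 stood at 0.0046, IL1B at 0.064 and CSF2 at 0.79, and with shUSP16#2 alone at -1.45, -0.55 and -1.03. For the lists, the row and its flanks, 3 alternatives were chosen after seeing the data. Under the pseudocount of 0.1, 1 subunit gene (NFKB1) fell under both hairpins in place of 0. After centring, 0 of the other NF-kB targets fell in place of 2, 0 receptors in place of 1, and 1 sensor (LY96) rose in place of 0. Without the GC trend these 3 counts were 0, 0 and 1 as well, 1 subunit gene fell in place of 0, 0 other cytokines rose in place of 1, and 3 genes of the CXC row fell in place of 5. Centring shifts every gene by the medians of -0.17 and -0.37. No paired analysis was possible because only 1 library stood for a condition. Depth is unknown, and the deposited values name hg19 while the sequences came from GRCh38.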
